A study of Bos taurus with 30 samples.

Results

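The miR-34 and miR-449 family was followed in the arcuate nucleus (ARC) of the hypothalamus of bull calves. Its 6 members here were chosen by name, as the rows of bta-miR-34a, bta-miR-34b, bta-miR-34c, bta-miR-449a, bta-miR-449b and bta-miR-449c among 1030 mature miRNAs, of which 863 had a read in any library. All 6 had reads in all 30 calves, and all 6 were among the 476 miRNAs that passed a filter on low counts and were tested. The only other row of either name, bta-miR-449d, had reads in 2 calves, at most 1 read each (0.0542 CPM, the unit of the table, in which reads are scaled to the library), and was not tested.

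All calves were Holstein-Friesian bulls with 1 small RNA library each. From 2 to 12 weeks of age, 15 calves were on the High plane of nutrition (HI), with 1.5 kg of milk replacer in 10 litres daily and concentrates without restriction, for a planned gain of 1.0 kg per day. The other 15 were on the Moderate plane (MOD), with 0.5 kg of milk replacer in 4 litres and 0.5 kg of concentrates daily, for a planned gain of 0.5 kg per day. The ARC was taken at 12 weeks of age as whole tissue, so that fewer cells of a type and less RNA per cell cannot be told apart in any value given here.

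The miR-34 and miR-449 miRNAs are best known for 2 roles. miR-34a is widely expressed, also in neurons, and is a direct transcriptional target of p53. miR-34b, miR-34c and the miR-449 miRNAs are abundant in multiciliated epithelia, such as those of the airway, oviduct and brain ventricles, where they are needed for the formation of motile cilia. The ARC lies against the wall of the 3rd ventricle, which is lined by ciliated ependymal cells and by tanycytes.

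By name, the members come from 3 loci of the bovine RefSeq annotation (assembly ARS-UCD2.0, used for neighbours alone, since the reads were aligned to ARS-UCD1.2). MIR34B and MIR34C lie within 10 kb of each other, where the annotation also holds BTG4 and HOATZ, the latter a gene of motile cilia. MIR449A, MIR449B and MIR449C lie within 10 kb of each other inside CDC20B, next to CCNO and MCIDAS, both regulators of the multiciliated cell programme. MIR34A lies apart, overlapping GPR157. MIR449D, the source of the almost undetected miR-449d, is at another place, within NAV2.

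Reads on miRNAs numbered between 6291376 and 21083250 per library, with medians of 8512614 in HI and 8811432 in MOD calves. The libraries fell into 21 shallower ones (12 HI, 9 MOD) and 9 deeper ones (3 HI, 6 MOD), and 3 reads were worth between 0.138 and 0.558 CPM. All 9 listed rows of neuronal miRNAs were tested, and miR-124a, one of them, lay between 826 and 9705 CPM. Markers of pituitary and epithelium were high in 9 calves (5 HI, 4 MOD). In these, miR-375 lay between 3192 and 47575 CPM, against 75.7 to 1268 CPM in the other 21. miR-204, abundant in choroid plexus and pigment epithelium, was high in all libraries, from 19955 to 43990 CPM. The study also sequenced mRNA, which was not analysed here, so markers of ependymal cells were not checked.

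miR-34c carried most of the family in nearly all calves. The 6 members together made up between 0.0139% and 0.523% of miRNA reads, with a median of 0.207%. Of the family's CPM, miR-34c had a median share of 89.1%, with a maximum of 91.8% in calf A57826 (MOD). Its lowest share was 34.9%, in calf A97821 (MOD), where miR-34a made up 57.2%. In A27823 (HI) the shares were 40.2% for miR-34c and 45% for miR-34a, and in the remaining 28 calves miR-34c held over 64% of the family.

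The order of mean levels was miR-34c, miR-34b, miR-34a, miR-449a, miR-449b and miR-449c. Each pair of neighbours was compared within calves by a two-sided permutation test (sign flips, 100000 resamples, 5 comparisons), on log2(CPM + 0.25). miR-34c was above miR-34b in 30 of 30 calves, by 3.95 ± 0.17 (SD) on the log2 scale (p = 1e-05, the smallest the test can give). miR-34b and miR-34a were not distinguished, with a difference of 0.28 ± 1.74 and miR-34b higher in 20 of 30 calves (p = 0.383). miR-34a was above miR-449a in 24 of 30 calves, by 1.09 ± 1.57 (p = 0.00058). miR-449a was above miR-449b in all 30, by 3.03 ± 0.42 (p = 1e-05). The gap from miR-449b to miR-449c was small, 0.25 ± 0.51, with miR-449b higher in 19 calves (p = 0.00985). Since capture of small RNAs in a library depends on their sequence, levels of different miRNAs in CPM are not molar amounts.

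All members but miR-34a varied widely between calves. Over the 30 calves the SD of log2(CPM + 0.25) was 1.65 for miR-34c, 1.63 for miR-34b, 1.53 for miR-449c, 1.44 for miR-449a and 1.29 for miR-449b. These SDs placed 9th, 10th, 12th, 16th and 21st of the 476 miRNAs tested. That of miR-34a was 0.37, rank 234. From the lowest to the highest calf the level changed 3.37-fold for miR-34a, 55.8-fold for miR-34b and 79.3-fold for miR-34c. For miR-449a, miR-449b and miR-449c the range was 102-fold, 141-fold and 146-fold.

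Depth set different limits for the members. miR-34c had between 764 and 66446 reads per library and miR-34b between 43 and 3934. miR-34a had a median of 595 reads and at most 1426, and miR-449a had 45 to 2135. miR-449b and miR-449c were the thinnest, with medians of 27.5 and 26 reads. The lowest libraries had 5 reads of miR-449b and 3 of miR-449c, and 2 calves, A37824 and A51980, had no more than 3 reads of miR-449c.

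miR-34c, the most abundant member, ranged in HI calves from 100.2 to 3947 CPM, with a median of 1611. In MOD calves it ranged from 54.1 to 4287 CPM, with a median of 2125. The diets overlapped over almost their whole range, and the lowest 2 calves, like the highest 2, were 1 HI and 1 MOD calf. miR-34b had 5.64 to 251 CPM in HI calves (median 98.2) and 4.78 to 267 CPM in MOD calves (median 144). Of HI calves, 3 were above the MOD median of miR-34b, while 10 MOD calves were above the HI median.

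miR-34a, the p53 target, lay between 41.4 and 112 CPM in HI calves, with a median of 63.2. In MOD calves it lay between 33.3 and 88.6 CPM, with a median of 59.6. The lowest value belonged to A41971 (MOD) and the highest to A27823 (HI), and the bulk of both diets coincided.

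miR-449a ranged from 2.33 to 99.9 CPM in HI calves (median 34.6) and from 6.40 to 237 CPM in MOD calves (median 40.6). The 3 highest calves, A61973, A12937 and A47874, were all MOD, at 237, 139 and 108 CPM, and the next, A92928, was HI. miR-449b had 0.259 to 13.2 CPM in HI calves (median 3.21) and 0.684 to 36.5 CPM in MOD calves (median 3.81). miR-449c had 0.259 to 9.41 CPM in HI calves (median 3.01) and 0.311 to 37.8 CPM in MOD calves (median 3.64). In all 3 miRNAs A61973 was the highest calf and A47858 (HI) the lowest, and the diets overlapped.

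**Figure D1:**
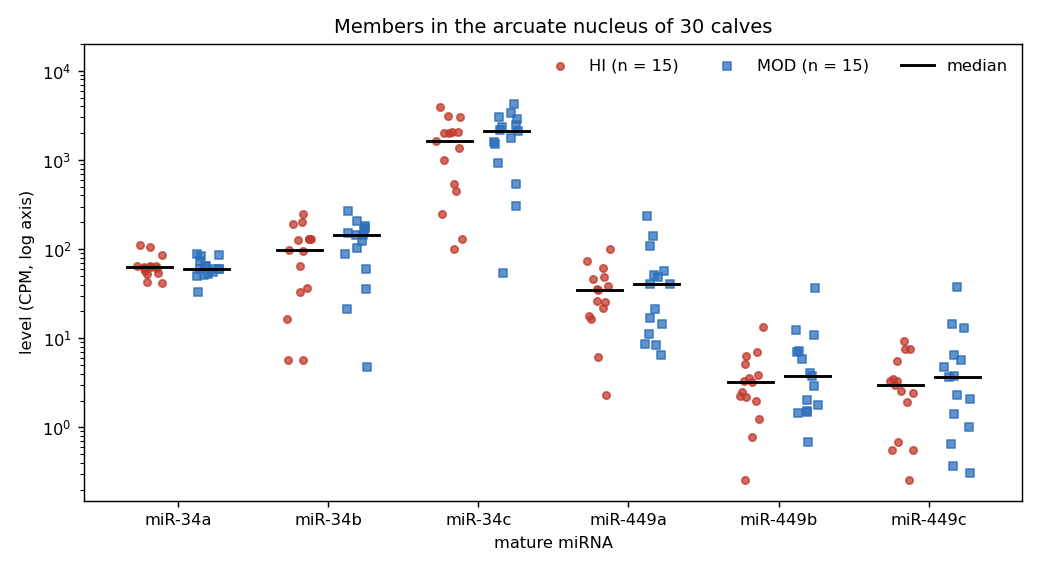
Level of each member in CPM on a log axis, 1 point per calf, with HI calves as circles and MOD calves as squares (15 each) and bars at the medians. The 2 diets overlap in every member, and miR-34a spreads 3.37-fold over the 30 calves against 55.8-fold or more in the others.

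Whether the plane of nutrition changed the family was tested with limma on log2(CPM + 0.25) over all 476 miRNAs, with Benjamini-Hochberg adjustment. A miRNA was called at an adjusted p below 0.1 with more than 1.5-fold change, and 0 of 6 members were called, and the background was also 0 of 476 (0%). At an unadjusted p under 0.05 it was 0 of 6 members, against 21 of 476 miRNAs (4.41%). The quasi-likelihood test of edgeR, run on the recovered reads, also called 0 miRNAs, with 20 at an unadjusted p under 0.05, of which 0 were members. Between the diets 0 miRNAs were called in any list of cell type markers. All 8 tested miRNAs of pituitary and epithelium had higher means in HI calves, as did 235 of all 476. Their median difference was 0.64 on the log2 scale, from 0.02 (SE 0.21) in miR-7 to 0.89 (SE 1.29) in miR-200a, with limma adjusted p of 0.982 or more. As markers high in 9 calves (5 HI, 4 MOD), the 8 are not separate readings of diet.

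The estimates were wide in the 5 variable members. HI relative to MOD, miR-34c differed by -0.45 on the log2 scale (SE 0.58, 95% interval -1.64 to 0.74, limma adjusted p = 0.982). The difference in miR-34b was -0.51 (SE 0.57, interval -1.68 to 0.66, adjusted p = 0.982). For miR-449a it was -0.19 (SE 0.51, interval -1.24 to 0.86, adjusted p = 0.984), for miR-449b -0.45 (SE 0.45, interval -1.38 to 0.47) and for miR-449c -0.34 (SE 0.54, interval -1.44 to 0.77). These intervals leave room for a change of more than 1.5-fold in either direction in miR-34b, miR-34c, miR-449a and miR-449c. miR-34a was estimated more closely, at 0.07 (SE 0.14, interval -0.21 to 0.35, adjusted p = 0.984), an interval that holds no change of 1.5-fold. Permutation tests of each single difference (two-sided, 100000 resamples) gave p between 0.347 for miR-449b and 0.722 for miR-449a. The median of the 6 differences was -0.39, against -0.00 over all miRNAs tested. The 6 are not separate readings of diet, since miR-34b varied with miR-34c (r = 0.995) and the miR-449 miRNAs with each other (r of 0.949 or more). Whether the family shifted as a whole was not tested.

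The size of these estimates depended on single calves in all 6 members. Without A47858 (HI), the lowest in miR-449a, that of miR-449a was 0.05 in place of -0.19, and without A61973 (MOD), the highest, it was 0.02. Leaving out 1 calf gave -0.79 to -0.22 in miR-34c and -0.81 to -0.26 in miR-34b, from A97821 (MOD) left out to A27823 (HI) left out. For miR-449b the range was -0.61 to -0.23 and for miR-449c -0.52 to -0.09, from A97821 to A61973 left out. For miR-34a it was 0.00 to 0.11, from A41971 (MOD) to A17855 (HI) left out. The fold changes of edgeR's test were farther from 0 than those of limma in the miR-449 miRNAs, at -0.55, -0.81 and -0.90 for miR-449a, miR-449b and miR-449c, and nearer to 0 in miR-34b, at -0.30.

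The differences were also taken within classes of libraries. Among the 21 shallower libraries miR-34c differed by -0.67 (12 HI, 9 MOD, p = 0.308, exact permutation test) and among the 9 deeper ones by -0.32 (3 HI, 6 MOD, p = 0.881, exact permutation test). Among the 9 calves with the lowest animal codes (7 HI, 2 MOD), a class found from the values of other miRNAs, miR-34c differed by -1.82 (exact permutation p = 0.167). Among the other 21 (8 HI, 13 MOD) it differed by 0.21 (exact permutation p = 0.812). The other variable members also had larger differences in the class of lowest codes than outside it, with -1.75 and 0.09 in miR-34b, -1.44 and -0.11 in miR-449a, -1.26 and -0.27 in miR-449b, and -1.69 and 0.00 in miR-449c. In miR-34a the values were 0.24 and -0.01. With 7 calves against 2, the smallest two-sided p that the exact test allows is 0.0556, so that it could not pass 0.05, and whether the diet difference differed between the code classes was not tested. The difference between diets was also compared between the depth classes by an interaction term in limma, which called 0 of 476 miRNAs, the members' adjusted p all being 0.999.

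**Figure D2:**
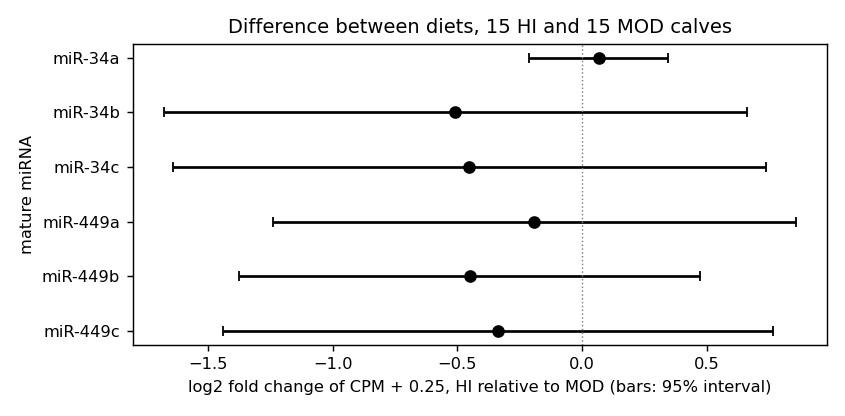
Difference between diets for each member as the log2 fold change of CPM + 0.25, HI relative to MOD, from limma over 15 and 15 calves, with bars for 95% intervals. All 6 intervals cross 0, the widest, that of miR-34c, running from -1.64 to 0.74 and the narrowest, that of miR-34a, from -0.21 to 0.35.

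The members of a locus rose and fell together over the calves. Each member was correlated over the 30 calves with all 475 other miRNAs tested, on log2(CPM + 0.25), with permutation p-values (100000 resamples) adjusted over all 2835 pairs. A pair was called at an adjusted p of Pearson's r under 0.05. All 4 pairs within a locus were called, and 0 of the other 11 pairs of members.

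For miR-34b and miR-34c, r was 0.995 and Spearman's rho 0.992 (permutation p = 1e-05 for both, adjusted 0.00101 for r). Each was the other's closest partner of 475. Of all 475 miRNAs, 35 were called with miR-34b (7.37%) and 33 with miR-34c (6.95%). These counts depended on the scaling, with 139 and 144 called under library size alone, and 74 and 81 with the mean level of the pituitary and epithelium list removed. Leaving out the 2 calves farthest from the median of miR-34b gave r = 0.994. It was 0.996 within HI and 0.998 within MOD calves, and 0.992 or more within each depth and code class.

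The ratio of miR-34c to miR-34b varied 2.01-fold. It had a median of 15.7, with quartiles of 15.1 and 16.4, while both miRNAs ranged over more than 55-fold. On the log2 scale the SD of the ratio was 0.17, against 1.65 and 1.63 for the miRNAs themselves. The lowest ratio was 11.3 (95% exact binomial interval 8.94 to 14.5, from 870 and 77 reads) in A97821, the calf lowest in both. The highest was 22.7 (18.7 to 27.7, from 2516 and 111 reads) in A47858. In 12 of 30 calves the interval, which covers counting error only, did not hold the median.

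The 3 miRNAs of the miR-449 locus were tied almost as closely. miR-449a and miR-449b had r = 0.959 and rho = 0.956, miR-449a and miR-449c r = 0.953 and rho = 0.968, and miR-449b and miR-449c r = 0.949 and rho = 0.956 (all permutation p = 1e-05, adjusted 0.00101). When the 2 farthest calves were dropped, r was between 0.933 and 0.948. Within diets r lay between 0.908 and 0.986, and within depth and code classes between 0.902 and 0.990.

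Other miRNAs were rarely called with this locus. For miR-449a and for miR-449b 2 of 475 miRNAs were called (0.421%), and these were the other members of the locus. For miR-449c it was 3 (0.632%), the third being miR-2284t-3p, named after its value was seen, with r = -0.577 and rho = -0.549 (permutation p = 0.00075 and 0.00188, adjusted 0.0187 and 0.0498). The ratio of miR-449a to miR-449b had a median of 8.83 and a range of 5.71 to 15.6. That of miR-449a to miR-449c had a median of 10.4 and ranged from 6.27, in A61973, to 31.7 in A37824 (95% exact binomial interval 10.5 to 156, from 95 and 3 reads). How reads that match more than 1 of these related sequences were counted is not given in the sources used here, and its part in the ties within a locus was not tested.

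The miR-34b/c locus and the miR-449 locus, both known from multiciliated cells, had lower correlations with each other than within themselves, a difference that was not tested. Over the 6 pairs between them r lay between 0.327 and 0.402 and rho between 0.187 and 0.293, with permutation p of r from 0.0286 to 0.0797 and adjusted p from 0.204 to 0.369. When the 2 farthest calves were dropped, r lay between 0.248 and 0.304. By rho, the miR-449 miRNAs came at places 95 to 154 among the 475 partners of miR-34b and miR-34c, and these in turn at places 19 to 76 among the partners of the miR-449 miRNAs.

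Between the 2 loci, r was 0.411 to 0.547 within HI calves and 0.173 to 0.270 within MOD calves. It was 0.652 to 0.741 in the 9 deeper libraries and 0.0629 to 0.187 in the 21 shallower ones, and 0.151 to 0.451 within the code classes. Leaving out any 1 calf gave r between 0.201 and 0.447 in the 6 pairs. With the 5 calves lowest in miR-34c left out, a choice made after seeing the data that also narrows the range of miR-34c, r was between -0.0813 and -0.00808.

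Single calves show the 2 loci apart. The ratio of miR-34c to miR-449a had a median of 51.7 and ran from 3.82 in A27823 (HI) to 327 in A81983 (HI), which is 85.6-fold. In A27823, miR-34c was at 100.2 CPM, the second lowest of 30, while miR-449a was at 26.2 CPM, near its median. A81983 had 1988 CPM of miR-34c, above its median, with 6.08 CPM of miR-449a, the second lowest. A61973 (MOD), highest in the miR-449 miRNAs, had 1522 CPM of miR-34c, and A57826 (MOD), highest in miR-34c, had 40.6 CPM of miR-449a. Only A47858 and A97821 were among the 3 lowest calves for both miRNAs.

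**Figure D3:**
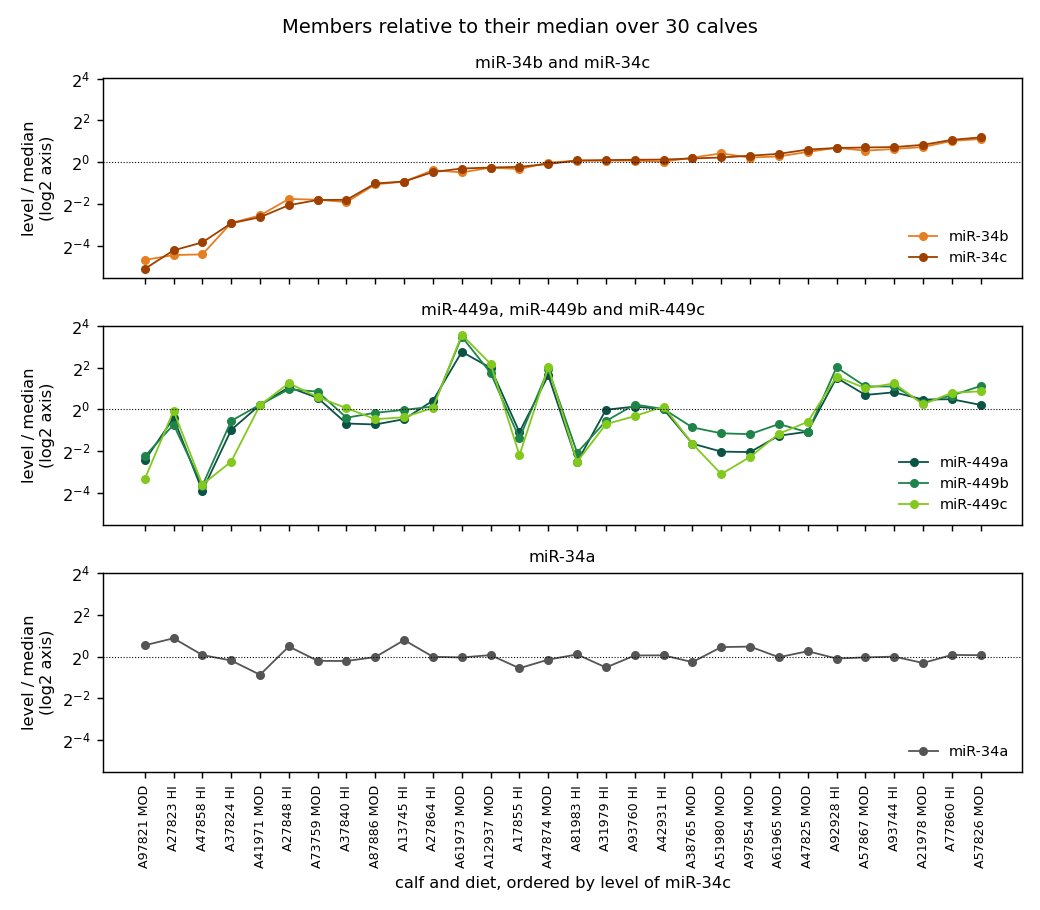
Level of each member divided by its median over the 30 calves, on a log2 axis, with calves ordered from the lowest to the highest level of miR-34c. miR-34b follows miR-34c in every calf, the 3 miR-449 miRNAs move together with peaks in A61973, A12937 and A47874 that miR-34c lacks, and miR-34a stays near its median.

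The miRNA most like miR-34b and miR-34c outside the family was miR-190b. It ranged from 4.46 CPM in A27823 to 118 CPM in HI calves (median 57.3), and from 7.02 CPM in A97821 to 164 CPM in MOD calves (median 49.0). The 3 calves lowest in miR-34c were also the 3 lowest in miR-190b. With miR-34b, r was 0.945 and rho 0.918, and with miR-34c r was 0.937 and rho 0.914 (all permutation p = 1e-05, adjusted 0.00101 for r). Dropping the 2 farthest calves gave r of 0.920 and 0.919. Within diets r lay between 0.908 and 0.973, and within depth and code classes between 0.926 and 0.956. In the 9 calves with high pituitary markers and in the other 21, r was between 0.933 and 0.954.

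Beside miR-34c, miR-190b scattered more than miR-34b. The ratio of miR-34c to miR-190b had a median of 32.2 and ran from 7.70 to 55.2, with an SD on the log2 scale of 0.61 against 0.17 for miR-34c to miR-34b.

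The next most alike were miR-425-3p and miR-153, the latter a miRNA enriched in neurons. For miR-425-3p rho was 0.685 with miR-34b and 0.671 with miR-34c (r = 0.562 and 0.544, adjusted permutation p = 0.0267 and 0.0322). For miR-153 rho was 0.629 and 0.603 (r = 0.685 and 0.683, adjusted permutation p = 0.00389 and 0.00315). With miR-425-3p, r was 0.202 for miR-34b and 0.211 for miR-34c in the 9 calves with high pituitary markers, against 0.639 and 0.619 in the other 21. Within diets and within depth and code classes it lay between 0.379 and 0.744. With miR-153, r was 0.829 to 0.833 in both sets of calves by pituitary markers and 0.641 to 0.749 within diets, depth classes and code classes. Its rho in the 9 calves with the lowest codes was 0.35 with miR-34b and 0.267 with miR-34c. Without the 5 calves lowest in miR-34c, 2 miRNAs of 475 were called with miR-34b and 2 with miR-34c, against 35 and 33 in all calves. These were the other miRNA of the locus and, with r = 0.839 and 0.836, miR-190b.

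**Figure D4:**
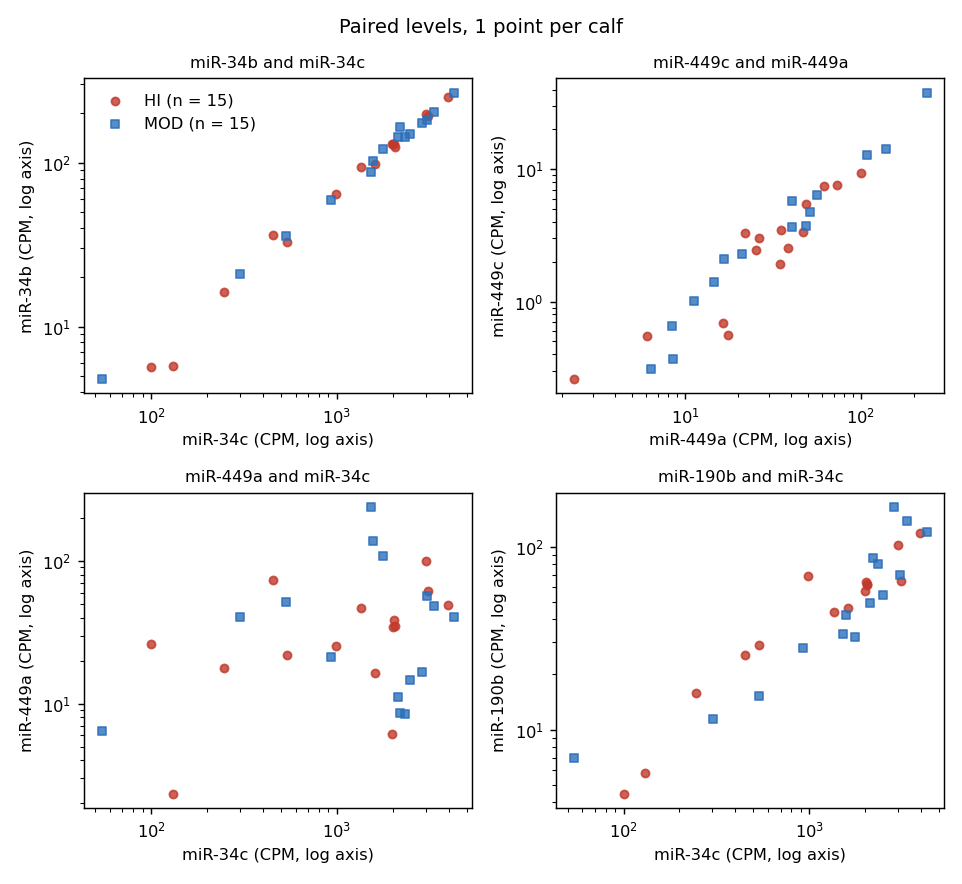
Levels of pairs of miRNAs in CPM on log axes, 1 point per calf, with HI calves as circles and MOD calves as squares (15 each). miR-34b follows miR-34c and miR-449c follows miR-449a closely (r = 0.995 and 0.953), and miR-190b follows miR-34c with more scatter (r = 0.937). The pair of miR-449a and miR-34c was not called (r = 0.343, adjusted permutation p = 0.328). miR-449a had 237 CPM in A61973 and 6.08 CPM in A81983, at 1522 and 1988 CPM of miR-34c.

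For the miR-449 miRNAs no positive partner outside the locus was called. The 3 most alike for each, drawn from miR-7862, miR-379, miR-2285t and miR-215, had rho between 0.372 and 0.440 and r between 0.131 and 0.415. The adjusted permutation p of r was between 0.183 and 0.844 in these 9 pairs. With the mean level of the pituitary and epithelium list removed, 5, 3 and 5 miRNAs were called with miR-449a, miR-449b and miR-449c, against 2, 2 and 3 without this step.

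No pair of miR-34a with another member was called. With the 5 other members r was between -0.222 and -0.127 and rho between -0.239 and -0.0425 (adjusted permutation p of r 0.644 to 0.853), and dropping the 2 farthest calves left r between -0.220 and -0.139. Leaving out any 1 calf gave r of -0.351 to -0.0331 with miR-34b and -0.372 to -0.0593 with miR-34c, from A41971 left out to A27823 left out. With the miR-449 miRNAs it gave -0.260 to -0.0545. Scaling to library size alone turned 4 of the 5 signs, giving 0.108 with miR-34b and 0.103 with miR-34c. Within HI calves r was between -0.403 and 0.246 and within MOD calves between -0.463 and 0.0366. Within the 9 deeper libraries all 5 were negative, from -0.694 to -0.473, and within the 21 shallower ones they lay between -0.154 and -0.00696. Within the code classes r ran from -0.627 to 0.386.

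Many other miRNAs did vary with miR-34a, 119 of 475 (25.1%), 54 of them with a positive and 65 with a negative r. With the mean level of the pituitary and epithelium list removed from all values, 57 were called, or 12.0%. With scaling to library size alone it was 237 (49.9%), and without the 5 calves lowest in miR-34c 40 (8.42%). The 3 most alike were miR-9-3p, an arm of the neural miR-9 hairpin, and the miRNAs miR-219-5p and miR-219-3p, of which the former is known for its role in oligodendrocytes. Their rho was 0.857, 0.841 and 0.826, and their r 0.648, 0.826 and 0.799 (adjusted permutation p of r 0.0042, 0.00101 and 0.00101). Dropping the 2 farthest calves gave r of 0.636, 0.818 and 0.786.

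In the 9 calves with high pituitary markers, miR-219-5p had 56.7 to 357 CPM, and in the other 21 it had 96.4 to 912 CPM. Its r with miR-34a was 0.463 in the first and 0.896 in the second. With the pituitary list removed r was 0.734 for miR-219-5p and 0.706 for miR-219-3p, both still called. For miR-9-3p it was 0.274, no longer called (adjusted permutation p = 0.423), with r of 0.424 and 0.662 in the 9 and the 21 calves. Within diets r of miR-219-5p was 0.885 in HI and 0.745 in MOD calves, 0.839 and 0.896 in shallower and deeper libraries, and 0.901 and 0.725 in the code classes. For miR-9-3p r was 0.581 in HI and 0.914 in MOD calves, 0.637 and 0.847 in the depth classes and 0.662 and 0.888 in the code classes.

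Lists of miRNAs known for a cell type were read in the same way. Both tested oligodendrocyte miRNAs, miR-219-5p and miR-338, were called with miR-34a (r = 0.826 and 0.807, adjusted permutation p = 0.00101), and 0 of these 2 with any other member. Of the 9 neuron rows, 6 were called with miR-34a, where 25.1% of all miRNAs were, and these 6 include 2 pairs of rows with identical values. miR-124a, miR-124b, miR-128 and miR-9-5p had a positive r between 0.633 and 0.737, and miR-129 and miR-129-5p a negative one of -0.700 (adjusted permutation p 0.00101 to 0.00756). In the 9 calves with high pituitary markers and in the other 21, r was 0.488 and 0.647 for miR-124a, 0.524 and 0.364 for miR-128, 0.420 and 0.811 for miR-9-5p, and -0.189 and -0.821 for miR-129. The neuron rows not called had a positive r in the 9 calves and a negative one in the 21. Their values were 0.520 and -0.575 for miR-137, 0.582 and -0.131 for miR-138, and 0.542 and -0.664 for miR-153.

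Over the 30 calves, all 8 tested miRNAs of the pituitary and epithelium list were called with miR-34a, with a negative r, where 25.1% of all miRNAs were called and 65 of 475 with a negative r. Because the calves fell into 2 clusters on this list, a value over all 30 would mix them, and the relation is given within each. In the 9 calves with high markers miR-34a had 33.3 to 63.5 CPM and r with miR-375 was -0.521. In the other 21 it had 50.7 to 112 CPM and r was -0.634. For miR-7 the 2 values were -0.468 and -0.779, for miR-141 -0.461 and -0.543, and for miR-200c -0.501 and -0.464. In the 21 calves r was nearer to 0 for the rest of the list. The 2 values were -0.511 and -0.0129 for miR-182, -0.510 and -0.0501 for miR-183, -0.500 and -0.0466 for miR-200a, and -0.539 and -0.169 for miR-429. The part of pituitary tissue in the level of miR-34a was not tested.

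**Figure D5:**
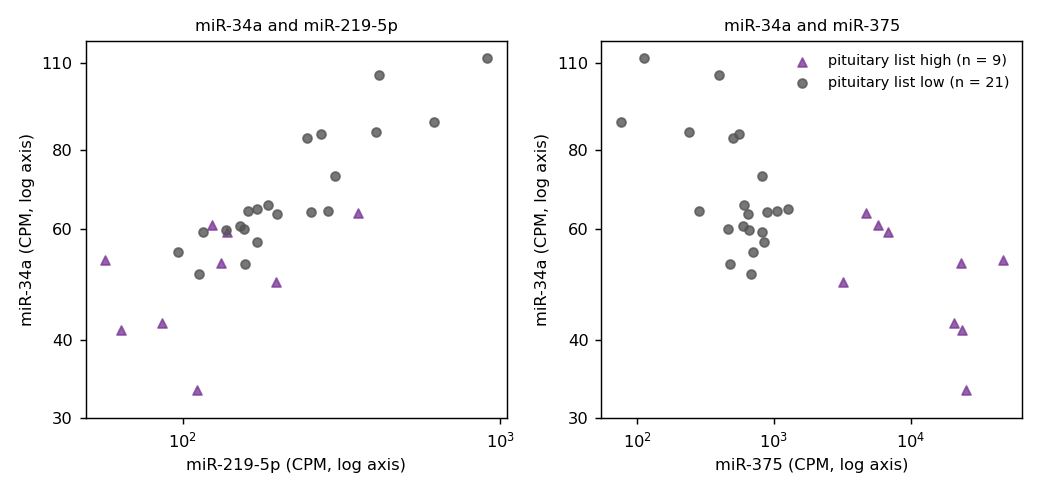
Level of miR-34a against miR-219-5p (left) and miR-375 (right), in CPM on log axes, 1 point per calf, with triangles for the 9 calves high in the pituitary and epithelium list and circles for the other 21. miR-34a rises with miR-219-5p (r = 0.826 over 30 calves), and the 9 calves high in miR-375 have 33.3 to 63.5 CPM of miR-34a.

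For the other 5 members the shares of all miRNAs called were 7.37% and 6.95% for miR-34b and miR-34c (29.3% and 30.3% with library size alone) and 0.421% to 0.632% for the miR-449 miRNAs, so counts in short lists near these shares say nothing particular about a list. With miR-34b and miR-34c, 1 of 9 neuron rows was called, miR-153, and with the miR-449 miRNAs 0 of 9. None of the tested rows of the oligodendrocyte, pituitary and epithelium, endothelium, smooth muscle, erythroid, leukocyte or muscle lists was called with these 5. In the 9 calves high in pituitary markers miR-34c lay between 247 and 3345 CPM and miR-449a between 16.4 and 61.7 CPM, within the range of the other 21 calves. The miRNAs of choroid plexus and pigment epithelium, miR-204 and miR-211, were not called with any of the 6 members. With the miR-449 miRNAs their rho lay between -0.0883 and 0.0425, and with miR-34b and miR-34c between -0.195 and -0.118.

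Among 9 miRNAs listed as responsive to p53, the regulator of miR-34a, 8 were tested and 0 called between the diets, with 4 higher and 4 lower in HI calves and a median difference of -0.03. Their most abundant ones were miR-143 (-0.27, SE 0.30), miR-192 (0.09, SE 0.09), miR-107 (0.02, SE 0.07) and miR-145 (-0.46, SE 0.16, limma adjusted p = 0.878). Of the 8, miR-141 and miR-200c were called with miR-34a, a share like the 25.1% over all miRNAs, both with a negative r, and both also stand in the pituitary and epithelium list. The other 6 were not called with miR-34a, and 0 of 8 were called with any other member, for which the share over all miRNAs was 0.421% to 7.37%.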

How the data were processed

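Small RNA libraries of the ARC of 30 calves (15 HI, 15 MOD) were analysed, each calf's diet being taken from its label. The labels name a stranded RNA kit and the study's methods a small RNA kit. The authors removed adapters, kept short reads, filtered out other small RNA species and assigned the rest to miRNAs of miRBase with miRDeep2 and Bowtie (build ARS-UCD1.2). The deposited signal values are decimals in the form of CPM over TMM-scaled library sizes, although they are named counts. The step of 1 read was recovered in each library. Of values under 200 reads, 94.5% to 97.9% came out whole (within 0.1 read), and these reads were used for the filter and the count tests. The class of lowest codes comes from earlier results of these data.

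The count test set for whole counts was replaced by limma 3.58.1 (lmFit, eBayes with trend) on log2(CPM + 0.25), a pseudocount worth 2.08 reads at the median depth. edgeR 4.0.16 gave the filter (filterByExpr) and a quasi-likelihood alternative, and DESeq2 1.42.0 a second one. Fold changes on this scale understate changes of low miRNAs. Correlations and permutation tests used Python 3.11.15 with scipy 1.17.1. The code was tested on simulated counts. The members and lists were chosen with earlier results of these data known. Named are the members, the 3 miRNAs most alike to each by rho, and the lists. In the list of liver, miR-122 was not tested, and miR-605 was not found in the table. No block was used, since replicate numbers are only accession order. The study balanced its diets for age, bodyweight, farm and sire, but farm and sire are not among the label items used here. The closest of 435 pairs of libraries had a chi-square over its degrees of freedom of 82.1, so none was counted as a repeat. Intervals and floors cover counting error only, since PCR copies are not independent molecules.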

Additional observations from a re-analysis of the deposited data

How the results depend on the processing

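Between the diets, 0 of 6 members were called under all 13 alternatives of normalization, pseudocount, filter, model terms and count test, and in each of 30 fits without 1 calf. Over all miRNAs, DESeq2 called 1, miR-2419-3p (log2 fold change 1.12, adjusted p = 0.0561, with 21 at an unadjusted p under 0.05), and leaving out 1 calf gave 0 to 1, the same miRNA without A77860 or without A97854. It is also the miRNA that the study reported. The difference of miR-449a ranged from -0.351 to 0.0514 without 1 calf (0.0514 without A47858, 0.0170 without A61973) and was -0.553 in edgeR's test. Without 1 calf the other members kept their sign, with -0.806 to -0.263 in miR-34b, -0.786 to -0.216 in miR-34c, -0.606 to -0.227 in miR-449b, -0.522 to -0.0878 in miR-449c and 0.00468 to 0.111 in miR-34a. Under the other alternatives miR-34b ran from -0.63 to -0.30 and miR-34c from -0.57 to -0.28. The direction in miR-34a was positive under every alternative (0.02 to 0.13). In edgeR's test miR-449c differed by -0.90 and miR-449b by -0.81, against -0.34 and -0.45 in limma.

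The 4 pairs of members within a locus were called, and 0 of 11 others, under all 8 alternatives and without any 1 calf. Scaling to library size alone gave r of miR-34a with miR-34b, miR-34c, miR-449b and miR-449c of 0.108, 0.103, 0.00236 and 0.0226. Without the 5 calves lowest in miR-34c (A97821, A27823, A47858, A37824 and A41971), chosen after seeing the data, r of miR-34b with miR-449a, miR-449b and miR-449c was -0.0680, -0.0153 and -0.0813, and that of miR-34c -0.0615, -0.00808 and -0.0645. The counts of miRNAs called with a member moved by over 1.5 times under 3 alternatives. With library size alone they were 237 for miR-34a, 139 for miR-34b and 144 for miR-34c. With the pituitary list removed they were 57, 74 and 81, and 5, 3 and 5 for miR-449a, miR-449b and miR-449c. Without the 5 calves they were 40 for miR-34a and 2 for each other member. The causes were not tested. Depth limits miR-449b and miR-449c, which have few reads in the lowest calves. No paired analysis was possible because each calf had 1 diet and the labels number no pairs.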
